A study of Homo sapiens with 15 samples.

Results

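In U87MG cells, 19 genes parted the libraries labelled ID1 and ID4 from those labelled ID2 and ID3, out of 25737 entries in the deposited table and 12227 that had a mean of 20 or more reads in at least 1 of these 4 groups. They were selected on their measured levels. A gene entered when its mean level in both ID1 and ID4 was at least 1.5 times that in both ID2 and ID3, or when both stood at 1/1.5 or less, with 0.5 added to each mean. Levels were in CPM, a read count scaled to the total count of its library. In 13 genes (0.106% of the 12227) ID1 and ID4 were higher, and in 6 (0.0491%) they were lower. Because the levels chose the genes, differences between these pairs of groups are given as a description with no test. The same rule with the other 2 pairings of the 4 labels chose 12 genes for ID1 and ID2 against ID3 and ID4, and 19 for ID1 and ID3 against ID2 and ID4.

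ID proteins are helix-loop-helix factors without a DNA-binding basic region. They dimerize with E proteins and some tissue-specific basic helix-loop-helix factors, and such dimers cannot bind the E-box, the motif CANNTG in the regulatory sequence of target genes. In gliomas, ID proteins are known for their part in keeping stem-like cells undifferentiated.

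All groups were U87MG, an established human glioblastoma line of mesenchymal character, which received lentivirus for 24 h before RNA was taken. The control group received control virus and is named GFP by its label, and the others received virus for ID1, ID2, ID3 or ID4 and carry the genotype label of overexpression. Each of the 5 groups had 3 libraries, and sequencing read the 3′ ends of polyadenylated RNA. The labels do not say whether libraries came from separate cultures, so p-values below measure the spread between these libraries, which may be technical.

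Total counts per library were between 11089044 and 15148979, and 3 reads, taken as the floor of detection, corresponded to 0.198 to 0.271 CPM, counting error only. The ID4 transcript stood at 223 ± 12.5 CPM (SD, n = 3) in the libraries labelled ID4 and below 1 CPM in every other library. For ID1 and ID2, the libraries that carry their name had no more of the transcript than GFP. ID1 was at 344 ± 6.96 CPM in GFP and 249.7 ± 3.60 in ID1 (SD, n = 3), and ID2 at 85.7 ± 2.81 in GFP and 44.9 ± 1.28 in ID2. The ID3 transcript was at 313 ± 11.4 CPM in the libraries labelled ID3 and 221 ± 8.33 in GFP, and also at 287 ± 27.8 in ID2 (SD, n = 3). Whether 3′ reads of vector transcripts were counted for these genes is not given in the sources used here. These levels thus do not show whether ID1 and ID2 were overexpressed. The groups are therefore called by their labels. Mean levels of the ID1, ID2 and ID3 transcripts were themselves lower in groups ID1 and ID4 than in ID2 and ID3. None of these transcripts entered by the rule. The ID1 transcript was at 281 CPM in ID4, 316 in ID2 and 329 in ID3, and libraries of ID4 and ID2 overlapped. The ID2 transcript was at 34.3 CPM in ID1, 35.9 in ID4 and 46.7 in ID3. The ID3 transcript was at 184 CPM in ID1 and 207 in ID4. The part of this split in the results was not tested. The third ID2 library correlated less with the others of its group (mean r = 0.988) than the other 14 libraries did with theirs (0.991 to 0.993). Of the markers of U87MG, 8 of 8 were detected and their summed level was 14864 to 16896 CPM in ID1 and ID4 libraries and 19833 to 22086 in ID2 and ID3 libraries, with GFP at 11811 to 12872. FN1, which lay just outside the limit of the rule, made up most of that gap, at means of 8496 CPM in ID1, 9386 in ID4, 13989 in ID2 and 14239 in ID3, while VIM stood at 3840, 3928, 4442 and 3855. The summed level of 4 neuronal markers, mostly SNAP25, was 12.3 to 17.98 CPM in ID1 and ID4 and 16.6 to 35.6 in ID2 and ID3, with some overlap, and 9.61 to 13.5 in GFP. Endothelial, epithelial, astrocyte and oligodendrocyte markers each summed to 1.57 CPM or less in every library. The part of these differences in the results was not tested. In bulk RNA, fewer cells of a type and less RNA per cell cannot be told apart.

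The genes were mostly weakly expressed. Their mean levels over the 12 ID libraries ran from 0.808 to 13.7 CPM with a median of 2.04, while the median of the 12227 genes was 23.2 CPM. In 17 of the 19, the 6 libraries of ID1 and ID4 did not overlap the 6 of ID2 and ID3. These were all 13 genes of the higher set and 4 of the lower set, next to 2.69% and 2.64% of the 12227 genes in the corresponding directions, and the choice of genes favours such a pattern. DAND5 and ZFHX2 overlapped.

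**Figure D1:**
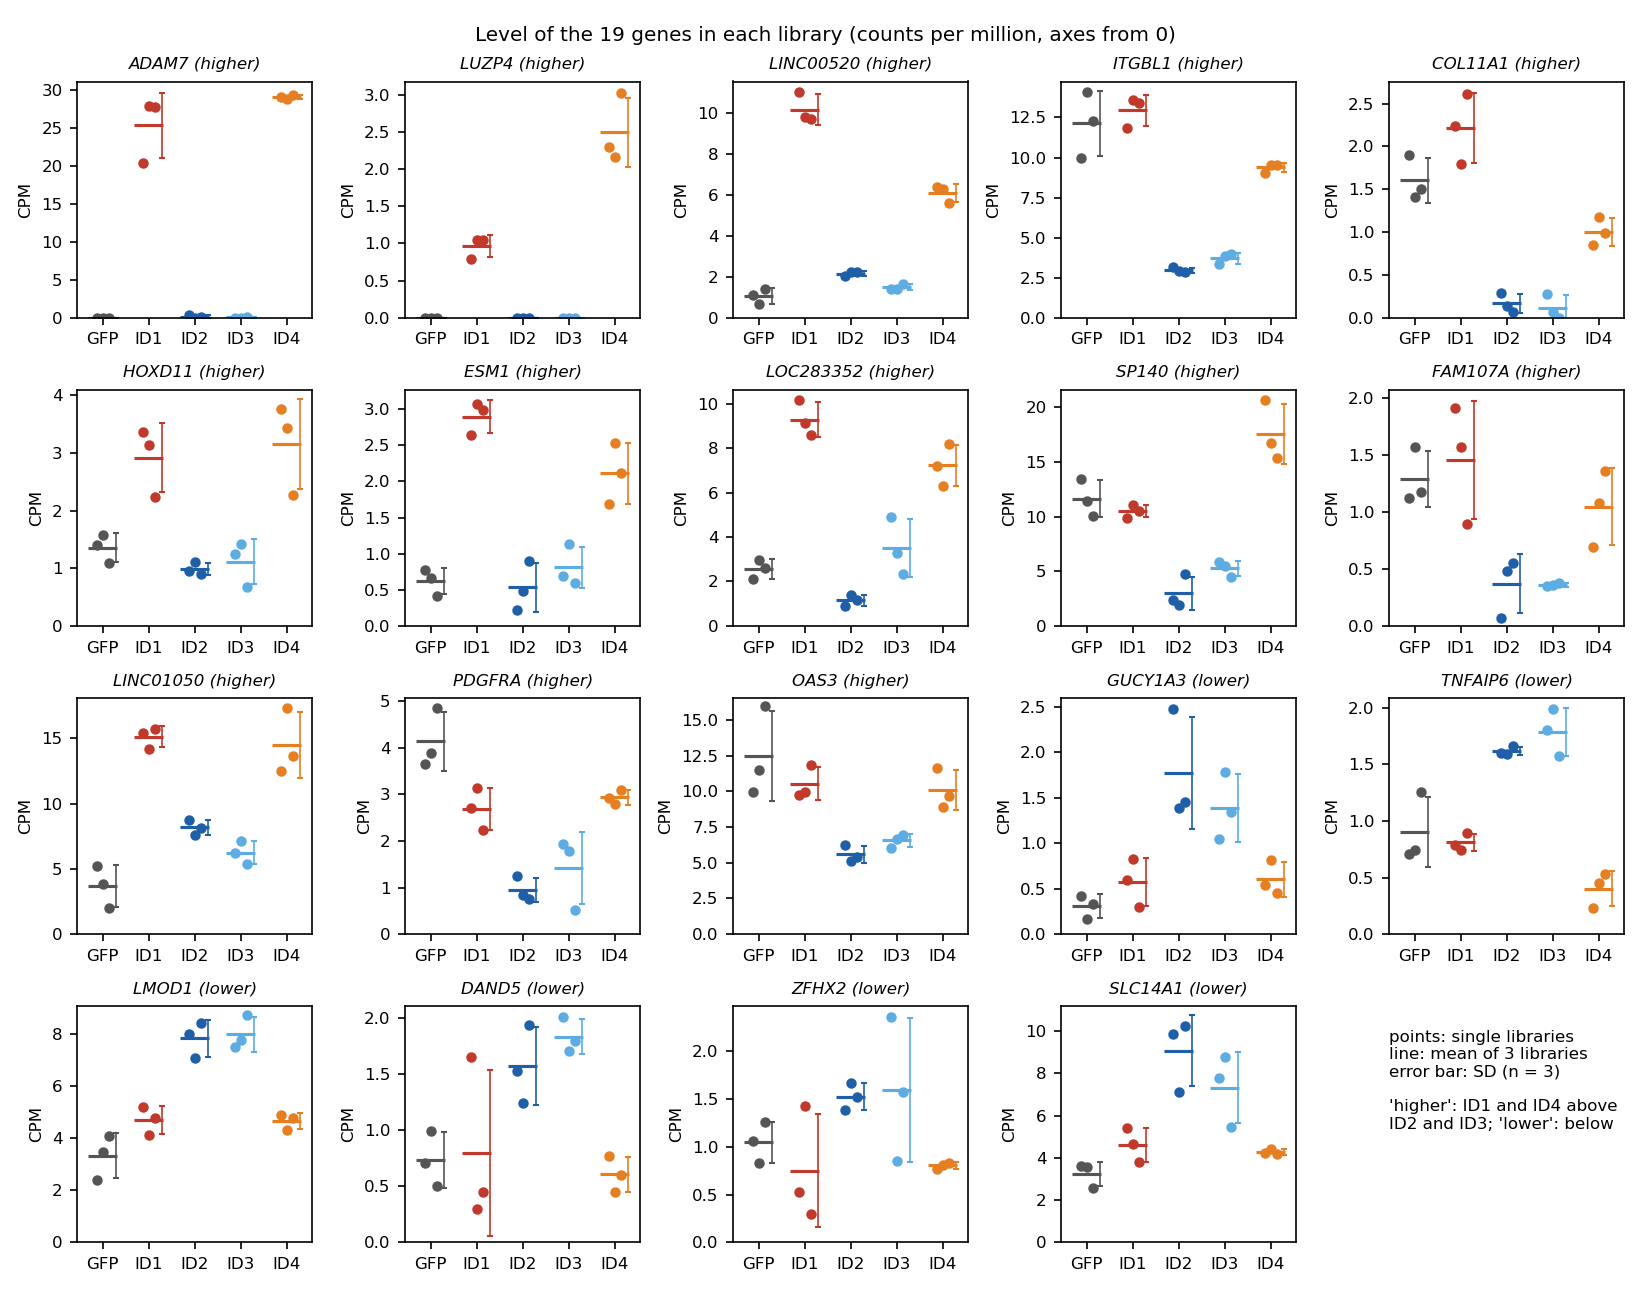
Level of each of the 19 genes in CPM (vertical axes, each from 0) in the 5 groups, with 1 point per library, a line at the mean and an error bar of 1 SD (n = 3). ADAM7 and LUZP4 were near 0 in GFP, ID2 and ID3, while in DAND5 and ZFHX2 a single library of ID1 overlapped those of the other pair.

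Promoters were read because ID proteins act through E-boxes. RefSeq (GRCh38.p14) gave 21 promoter entries for 16 of the 19 genes, and ADAM7, LINC00520 and LOC283352 had no entry. The motif CANNTG, which reads alike on both strands, was present in the 250 bases before the start in 17 of 21 entries (81.0%) and in 61.8% of 35116 promoters. FAM107A, PDGFRA, GUCY1A3 and SLC14A1 have more than 1 entry. By gene, 12 of the 16 had the motif in every entry and 14 in at least 1 entry. These shares were not tested. The narrower CACGTG, itself a case of CANNTG, was in 1 of 21, that of HOXD11, and in 6.34% of all promoters. These are matches of letters and not sites shown to be bound. For COL11A1 and LUZP4 no CANNTG was in this window.

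Of the promoters, 4 are printed from 5′ to 3′ on the strand of the gene, with E-boxes in capitals, to show the only CACGTG of the set, the best separated protein-coding gene with a level over 5 CPM and a promoter entry, and 2 genes of the lower set. They are HOXD11 at chr2:176107030-176107279, ITGBL1 at chr13:101452425-101452674, TNFAIP6 at chr2:151357342-151357591 and LMOD1 at chr1:201946549-201946798, the last on the − strand and the others on the + strand.
HOXD11: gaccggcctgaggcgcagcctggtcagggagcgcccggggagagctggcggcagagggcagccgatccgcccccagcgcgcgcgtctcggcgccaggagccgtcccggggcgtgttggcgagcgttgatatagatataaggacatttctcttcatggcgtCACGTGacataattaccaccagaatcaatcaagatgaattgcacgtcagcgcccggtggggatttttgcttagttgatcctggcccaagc
ITGBL1: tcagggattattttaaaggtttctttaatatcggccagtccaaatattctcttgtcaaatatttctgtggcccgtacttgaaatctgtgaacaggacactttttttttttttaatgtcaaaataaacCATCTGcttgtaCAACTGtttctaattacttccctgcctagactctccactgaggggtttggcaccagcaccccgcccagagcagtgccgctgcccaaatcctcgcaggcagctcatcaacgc
TNFAIP6: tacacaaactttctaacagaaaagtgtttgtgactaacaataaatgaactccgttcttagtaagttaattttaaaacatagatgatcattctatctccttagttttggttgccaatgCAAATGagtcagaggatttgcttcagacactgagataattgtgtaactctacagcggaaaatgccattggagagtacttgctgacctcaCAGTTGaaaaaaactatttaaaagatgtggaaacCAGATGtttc
LMOD1: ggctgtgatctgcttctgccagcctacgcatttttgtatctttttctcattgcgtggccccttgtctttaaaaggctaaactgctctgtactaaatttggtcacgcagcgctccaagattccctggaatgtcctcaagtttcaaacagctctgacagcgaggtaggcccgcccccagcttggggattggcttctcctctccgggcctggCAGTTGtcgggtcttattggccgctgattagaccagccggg
The HOXD11 and LMOD1 windows each held 1 E-box, ITGBL1 held 2 and TNFAIP6 held 3.

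ADAM7, an ADAM-family membrane protein best known from the epididymis (GRCh37 chromosome 8, 24298443 to 24384483, + strand), had the widest gap of the 19. Its raw counts were 309, 374 and 372 in ID1 and 379, 320 and 388 in ID4. They were 4, 0 and 2 in ID2, 0, 0 and 1 in ID3, and 0 in all 3 GFP libraries. The gene was thus abundant in 6 libraries and at or next to 0 in 9. Its mean level was 25.4 ± 4.31 CPM in ID1 and 29.1 ± 0.252 CPM in ID4 (SD, n = 3). Taking the floor of 3 reads per library for GFP, ID1 was at least 107-fold and ID4 at least 123-fold higher than GFP. The difference between ID1 and ID4 was -0.21 on the log2 scale (95% interval -0.50 to 0.07) and did not pass the test.

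LUZP4, a cancer-testis antigen that acts in mRNA export (chromosome X, 114524281 to 114542128, + strand), had the same on-off pattern at a lower level. Its counts were 12, 14 and 14 in ID1 and 30, 24 and 40 in ID4, and it was at 0 in all 9 libraries of GFP, ID2 and ID3. Against the floor in GFP, its level was at least 4.06-fold higher in ID1 (0.961 ± 0.146 CPM) and at least 10.5-fold higher in ID4 (2.50 ± 0.464 CPM; SD, n = 3). The ID4 libraries all lay above the ID1 libraries.

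A group of secreted, matrix and surface proteins followed. ITGBL1, a secreted protein with repeats like those of integrin beta chains (chromosome 13, 102104944 to 102373206, + strand), had counts of 179, 182 and 180 in ID1 and 118, 106 and 126 in ID4. Its counts were 43, 42 and 41 in ID2, 48, 54 and 53 in ID3, and 142, 170 and 147 in GFP. The GFP control thus stood with ID1 and ID4, and the low libraries were those of ID2 and ID3. Mean levels were 12.9 ± 0.985 CPM in ID1 and 9.38 ± 0.288 in ID4, against 2.96 ± 0.155 in ID2 and 3.71 ± 0.338 in ID3 (SD, n = 3).

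COL11A1, the alpha 1 chain of the fibril-forming type XI collagen (chromosome 1, 103342023 to 103574428, − strand), also had GFP among the high pair, at a lower level. Counts were 27, 17 and 18 in GFP, 34, 24 and 35 in ID1, and 11, 13 and 13 in ID4. They were 4, 2 and 1 in ID2 and 4, 1 and 0 in ID3, close to the floor. ESM1 encodes endocan, a proteoglycan known from endothelial cells (chromosome 5, 54273695 to 54318499, − strand). Its counts were 40, 41 and 40 in ID1, 22, 28 and 28 in ID4, 3, 7 and 13 in ID2, 10, 16 and 8 in ID3 and 11, 8 and 5 in GFP. Here GFP stood with the low pair, and the highest ESM1 level outside ID1 and ID4 was 1.14 CPM. The endothelial markers PECAM1, CDH5, VWF and CLDN5 summed to 0.837 CPM at most in any library.

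PDGFRA, the receptor tyrosine kinase for platelet-derived growth factor and a marker of one class of gliomas (chromosome 4, 55095447 to 55164412, + strand), was highest in GFP. Its counts were 52, 47 and 58 in GFP, 41, 42 and 30 in ID1, 38, 31 and 41 in ID4, 17, 12 and 11 in ID2 and 28, 25 and 7 in ID3. FAM107A, an actin-associated protein (chromosome 3, 58549844 to 58613337, − strand), was at 1.29 ± 0.246 CPM in GFP, 1.46 ± 0.518 in ID1 and 1.04 ± 0.337 in ID4, against 0.370 ± 0.260 in ID2 and 0.359 ± 0.0140 in ID3 (SD, n = 3). For both genes the gap between the lowest library of the high pair and the highest of the low pair was small, at 2.24 against 1.94 CPM for PDGFRA and 0.690 against 0.553 CPM for FAM107A.

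Nuclear factors in the higher set were HOXD11 and SP140. HOXD11, a homeobox factor of limb and axial patterning (chromosome 2, 176968944 to 176974482, + strand), had counts of 51, 42 and 30 in ID1 and 49, 38 and 30 in ID4. It was at 13, 16 and 13 in ID2, 18, 20 and 9 in ID3 and 20, 19 and 13 in GFP. SP140, a nuclear body protein that reads chromatin marks and is known from lymphoid cells (chromosome 2, 231067826 to 231177930, + strand), had 150, 148 and 141 reads in ID1 and 269, 185 and 203 in ID4. It had 32, 27 and 68 in ID2, 84, 77 and 60 in ID3 and 191, 138 and 120 in GFP. The third ID2 library was above the other ID2 libraries for SP140 and still below every ID1 and ID4 library. The 3 immune markers listed in the table summed to 50.3 to 66.4 CPM in ID1 and ID4, 55.7 to 73.7 in ID2 and ID3 and 49.1 to 56.4 in GFP. CD68 alone made up nearly all of this sum. The leukocyte marker PTPRC had means of 0.0718 CPM in ID1, 0.0511 in ID4, 0.236 in ID2, 0.281 in ID3 and 0.185 in GFP. The T cell marker CD3E was at 0 in GFP, ID1 and ID2. The part of these markers in the SP140 result was not tested.

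Long noncoding RNAs made up 3 of the 13 genes. LINC00520 (chromosome 14, 56247850 to 56263449, − strand) had 167, 131 and 130 reads in ID1, 83, 70 and 74 in ID4, 28, 32 and 32 in ID2, 20, 20 and 22 in ID3 and 16, 8 and 17 in GFP. LINC01050 (chromosome 13, 43384502 to 43389033, − strand) had 233, 190 and 211 in ID1, 163, 192 and 180 in ID4, 120, 110 and 118 in ID2, 90, 100 and 72 in ID3 and 74, 46 and 24 in GFP. In CPM, every ID library stood above every GFP library in LINC01050, narrowly, with the lowest ID3 library at 5.39 and the highest GFP library at 5.21. In LINC00520 the ID3 libraries just overlapped those of GFP in CPM, at 1.39 in the lowest ID3 and 1.42 in the highest GFP library.

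LOC283352 (TMEM132D-AS1, chromosome 12, 129594174 to 129597839, + strand) had 154, 122 and 115 reads in ID1, 94, 70 and 108 in ID4, 12, 20 and 17 in ID2, 71, 46 and 31 in ID3 and 30, 36 and 31 in GFP. Its ID2 libraries were the lowest, and the highest ID3 library, at 4.92 CPM, approached the lowest ID4 library, at 6.31 CPM. TMEM132D, which overlaps it on the opposite strand, was at 0 in all 15 libraries.

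OAS3, an interferon-induced enzyme that makes 2′-5′ oligoadenylates in antiviral defence (chromosome 12, 113375856 to 113414265, + strand), was the weakest separation of the higher set, at 1.5004 times. Its counts were 148, 133 and 159 in ID1, 152, 99 and 128 in ID4, 86, 74 and 78 in ID2, 87, 94 and 93 in ID3 and 141, 139 and 191 in GFP. The GFP libraries reached from within the range of ID1 and ID4 to above it.

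Of the 6 genes lower in ID1 and ID4, GUCY1A3 (GUCY1A1), the alpha 1 subunit of the nitric oxide receptor soluble guanylate cyclase (chromosome 4, 156587878 to 156658211, + strand), had the widest gap, at 1.72 times. Its counts were 9, 11 and 4 in ID1, 7, 9 and 6 in ID4, 34, 20 and 21 in ID2, 15, 25 and 18 in ID3 and 6, 2 and 4 in GFP. All 6 libraries of ID2 and ID3 lay above all 9 others, at counts that are small throughout. TNFAIP6, a secreted hyaluronan-binding protein induced in inflammation (chromosome 2, 152214106 to 152236560, + strand), had 12, 10 and 12 reads in ID1, 3, 5 and 7 in ID4, 22, 23 and 24 in ID2, 26, 28 and 21 in ID3 and 10, 9 and 15 in GFP. Its ID4 libraries were the lowest of all.

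LMOD1, a leiomodin that nucleates actin filaments in smooth muscle (chromosome 1, 201865584 to 201915676, − strand), was better covered. Its counts were 79, 55 and 64 in ID1, 64, 48 and 63 in ID4, 110, 102 and 122 in ID2, 108, 109 and 117 in ID3 and 34, 42 and 49 in GFP. Mean levels were 4.70 ± 0.556 CPM in ID1, 4.67 ± 0.302 in ID4, 7.84 ± 0.706 in ID2 and 8.0 ± 0.667 in ID3, with GFP at 3.33 ± 0.864 (SD, n = 3). SLC14A1, the urea transporter B (chromosome 18, 43266990 to 43332485, + strand), stood at 4.62 ± 0.804 CPM in ID1, 4.27 ± 0.135 in ID4, 9.07 ± 1.69 in ID2, 7.32 ± 1.69 in ID3 and 3.25 ± 0.568 in GFP. Its pairs were parted by 5.46 against 5.41 CPM in the nearest libraries.

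DAND5, a secreted antagonist of Nodal (chromosome 19, 13075973 to 13085574, + strand), had 25, 4 and 6 reads in ID1, and the first of these lay within the range of ID2 (21, 18 and 28) and ID3 (29, 24 and 24). It had 10, 5 and 8 reads in ID4 and 10, 12 and 6 in GFP. ZFHX2, a zinc finger homeobox factor (chromosome 14, 23990066 to 24025401, − strand), had 8, 19 and 4 reads in ID1, 10, 9 and 11 in ID4, 19, 24 and 22 in ID2, 34, 12 and 21 in ID3 and 15, 10 and 15 in GFP. In CPM, a single library of ID1 made it overlap. It was at 1.42 and lay above the lowest ID3 library (0.854) and the lowest ID2 library (1.38).

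The rule did not use the GFP libraries. Among the 13 higher genes, the GFP mean lay below all 4 ID means in 3 (ADAM7, LINC00520 and LINC01050), at or among the low pair in 3 (LUZP4, ESM1 and LOC283352) and between the pairs in 1 (HOXD11). It lay among the high pair in 4 (ITGBL1, COL11A1, SP140 and FAM107A) and above all in 2 (PDGFRA and OAS3). The higher set thus held genes nearer to GFP in ID1 and ID4 (6) and genes nearer to GFP in ID2 and ID3 (7). In all 6 lower genes GFP was nearer to ID1 and ID4. It lay below all 4 ID means in GUCY1A3, LMOD1 and SLC14A1, among the low pair in DAND5, and between the pairs in TNFAIP6 and ZFHX2.

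**Figure D2:**
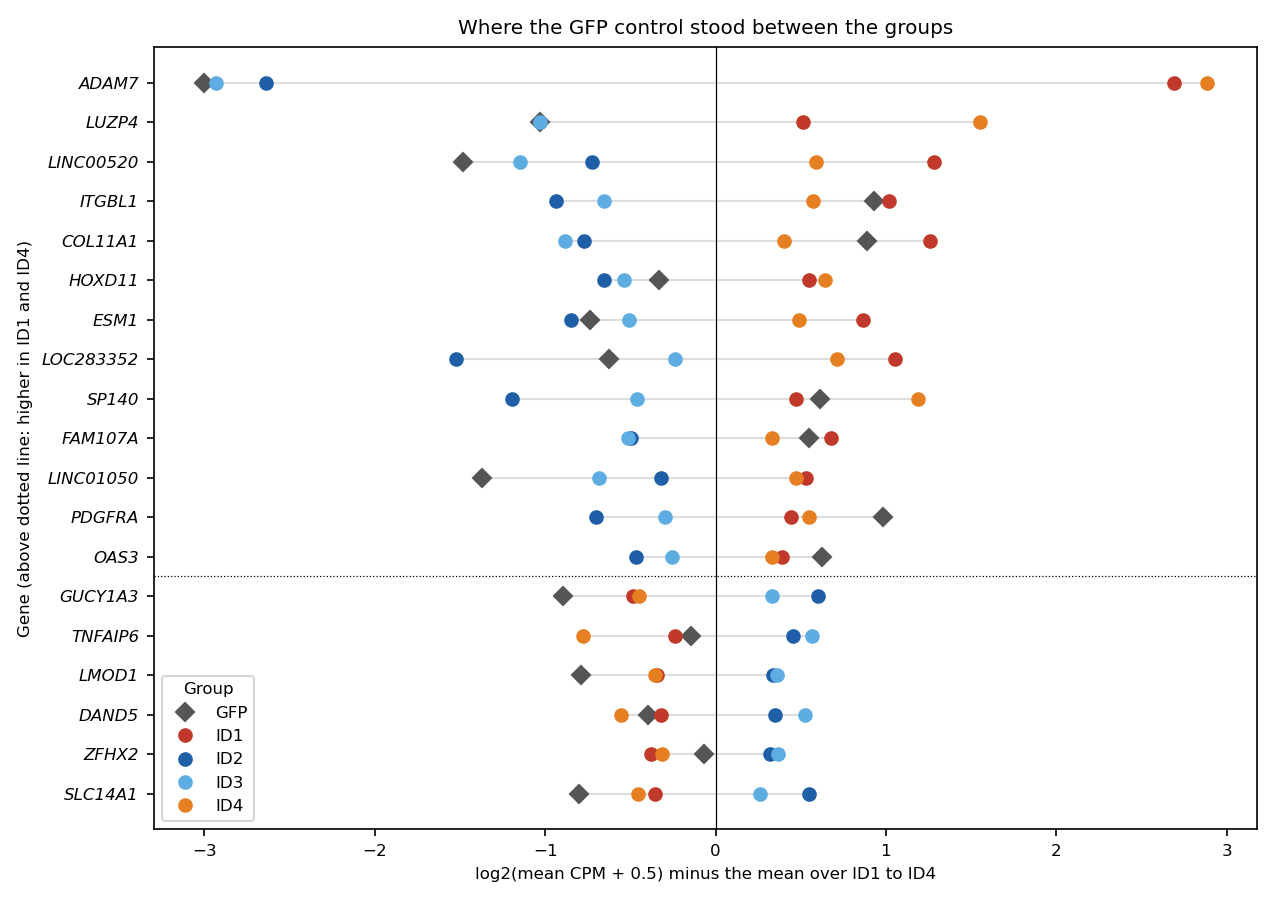
Mean level of each gene in each group as log2(mean CPM + 0.5), less the mean of that quantity over ID1 to ID4 (horizontal axis), with GFP as a diamond. GFP lay to the right with ID1 and ID4 for ITGBL1, COL11A1, SP140, FAM107A, PDGFRA and OAS3, and to the left for the other genes of the higher set and for the lower set.

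The level in GFP was tested against the mean of the 4 ID groups, a contrast that is balanced over the pairs, in 1 fit over the 12870 genes in the upper 50% by mean level. This limit left out LUZP4 and COL11A1. The count minimum of the rule applied to the ID groups and not to GFP, and 10 of the 19 genes met it only through the pair where they were high. These were ADAM7, LUZP4, COL11A1, HOXD11, ESM1 and FAM107A of the higher set and GUCY1A3, TNFAIP6, DAND5 and ZFHX2 of the lower. A level below the ID mean in GFP is favoured by that choice. The ID mean also holds the pair chosen as low, so a gene level in GFP, ID1 and ID4 can pass as higher in GFP. The counts in both directions are therefore a description. Of the 11 higher genes tested, 5 were higher in GFP than the mean of the ID groups, where 15.2% of all tested genes were, and 5 were lower, where 16.8% were. ITGBL1 was higher in GFP than this mean by 1.01 on the log2 scale (SE 0.11, edgeR quasi-likelihood test, Benjamini-Hochberg adjusted p = 1.65e-07), and PDGFRA by 1.19 (SE 0.21, edgeR quasi-likelihood test, Benjamini-Hochberg adjusted p = 0.00013). Set against GFP alone, ITGBL1 stood at 0.08 (SE 0.13) in ID1 and -0.37 (SE 0.13) in ID4. SP140 (0.68), FAM107A (0.92) and OAS3 (0.66) passed in the same direction. LINC00520 was lower in GFP, at -1.79 (SE 0.20, edgeR quasi-likelihood test, Benjamini-Hochberg adjusted p = 2.69e-07), and so were LINC01050 (-1.45), ESM1 (-1.01), LOC283352 (-0.67) and ADAM7, whose fold is given above as a bound. HOXD11, at -0.39 (95% interval -0.90 to 0.13), did not pass. Of the 6 lower genes, GUCY1A3 (-1.57), LMOD1 (-0.88) and SLC14A1 (-0.88) were lower in GFP, and TNFAIP6 (-0.14), DAND5 (-0.58) and ZFHX2 (-0.06) did not pass. COL11A1, in the fit without the limit on low values, was higher in GFP by 1.79 (SE 0.33, edgeR quasi-likelihood test, Benjamini-Hochberg adjusted p = 1.19e-06).

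Some of these calls were lost with fewer libraries, and that of FAM107A also with another test. With limma on the deposited log2 values of all 15 libraries it stood at 0.93 (limma-trend, Benjamini-Hochberg adjusted p = 0.0584). With 1 replicate number, and so 5 of the 15 libraries, left out, the edgeR quasi-likelihood test (Benjamini-Hochberg adjusted) did not pass for FAM107A without number 1 (0.91, adjusted p = 0.0626) or 2 (0.83, adjusted p = 0.217), at folds close to the 0.92 of all libraries. It did not pass for SP140 without number 1 (0.57, adjusted p = 0.0544), LOC283352 without number 1 (-0.47, adjusted p = 0.132), GUCY1A3 without number 2 (-1.14, adjusted p = 0.0998), or ESM1 without number 2 (-0.95, adjusted p = 0.138) or 3 (-0.70, adjusted p = 0.193). All kept their direction. ADAM7 lost its call without number 3 (adjusted p = 1.00), in a contrast that averages groups at or next to 0.

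Differences within each pair were tested next, since the rule asked only that both groups of a pair lie on one side. The same 12 ID libraries chose the genes. The rule set the lower group of the high pair against the higher group of the low pair, so a gap within a pair bears on the choice. The counts and p-values within the pairs are therefore a description. Between ID1 and ID4, 2 of the 17 genes tested differed, where 4.87% of all tested genes did. LINC00520 was higher in ID1 by 0.73 (SE 0.15, edgeR quasi-likelihood test, Benjamini-Hochberg adjusted p = 0.0042), and SP140 was higher in ID4, at -0.76 (SE 0.18, edgeR quasi-likelihood test, Benjamini-Hochberg adjusted p = 0.0124). Without replicate number 1 neither passed, with LINC00520 at 0.70 (adjusted p = 0.15) and SP140 at -0.58 (adjusted p = 0.34), and without number 2 they stood at 0.78 (adjusted p = 0.0562) and -0.84 (adjusted p = 0.0859; edgeR quasi-likelihood test, Benjamini-Hochberg adjusted). ITGBL1 was just above the threshold, at 0.45 (SE 0.13, edgeR quasi-likelihood test, Benjamini-Hochberg adjusted p = 0.0501). COL11A1, in the fit without the limit, was higher in ID1 by 1.13 (SE 0.36, edgeR quasi-likelihood test, Benjamini-Hochberg adjusted p = 0.043). In the same fit LUZP4 was higher in ID4, at -1.40 (SE 0.39, edgeR quasi-likelihood test, Benjamini-Hochberg adjusted p = 0.0126).

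Between ID2 and ID3, 2 of 17 differed, where 15% of all tested genes did. LOC283352 was lower in ID2, at -1.57 (SE 0.27, edgeR quasi-likelihood test, Benjamini-Hochberg adjusted p = 0.000394). SP140 was lower in ID2 too, at -0.78 (SE 0.24, edgeR quasi-likelihood test, Benjamini-Hochberg adjusted p = 0.0311). Without the third ID2 library, in which SP140 was high, its difference was -1.30 (edgeR quasi-likelihood test, Benjamini-Hochberg adjusted p = 0.000166), and without replicate numbers 1 and 2 it was -0.57 and -0.50 and did not pass. LMOD1 had the narrowest intervals of the lower set, at -0.00 (-0.38 to 0.37) between ID1 and ID4 and 0.01 (-0.31 to 0.33) between ID2 and ID3.

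**Figure D3:**
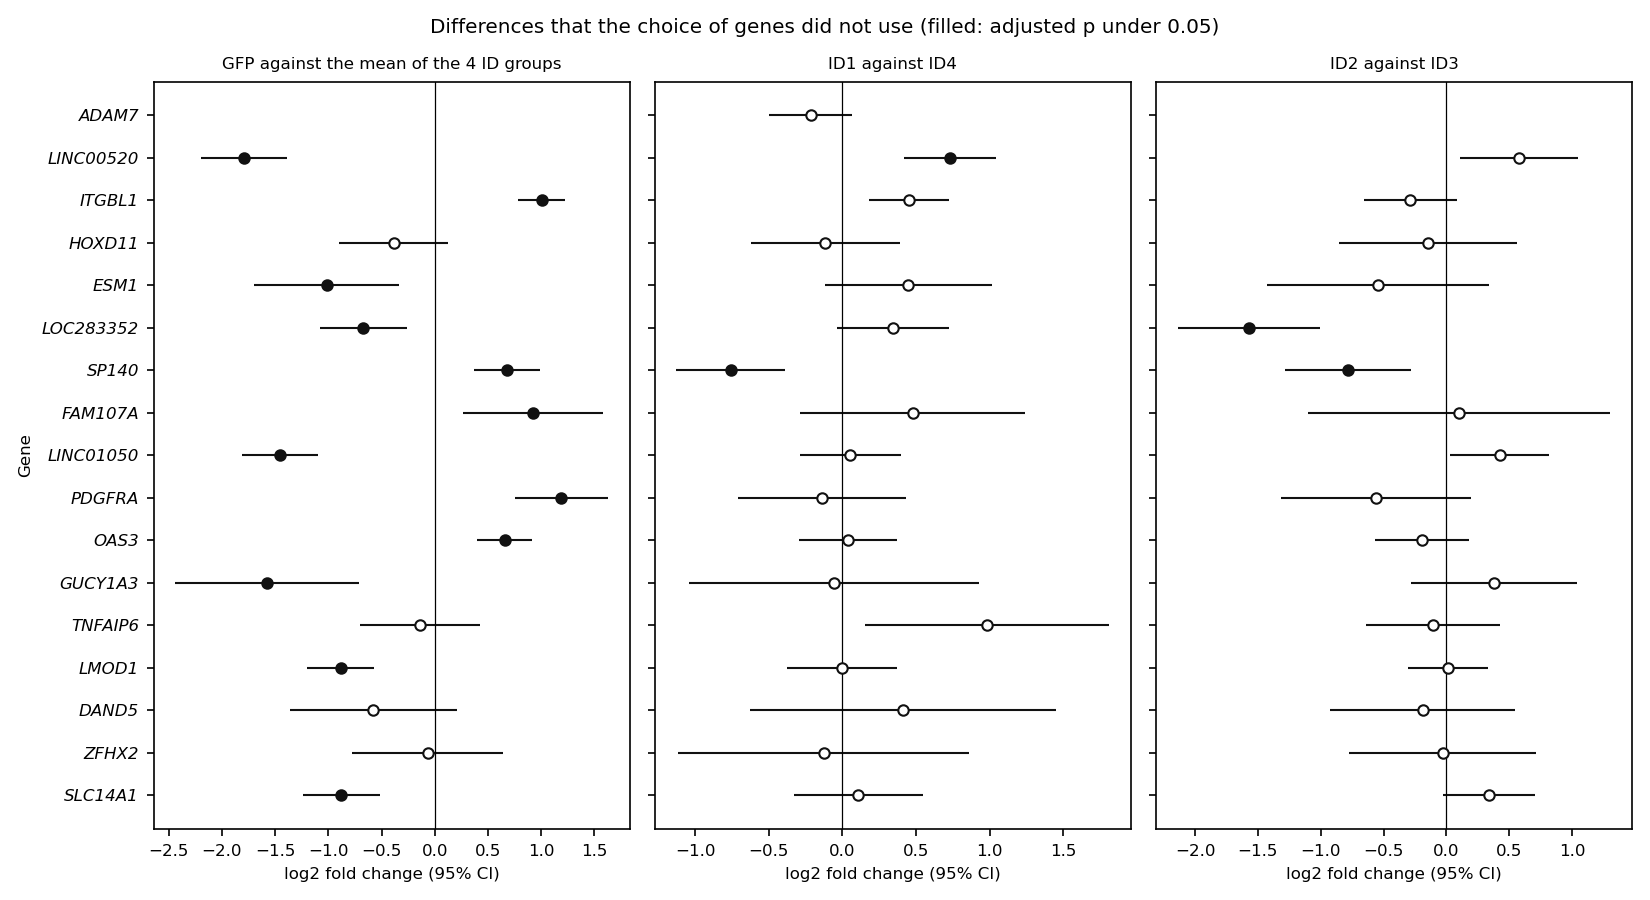
Log2 fold change with its 95% interval for the 17 tested genes in 3 contrasts, from left to right GFP against the mean of the 4 ID groups, ID1 against ID4 and ID2 against ID3, filled where the adjusted p was under 0.05. ADAM7 is drawn only between ID1 and ID4, because the other groups were at or next to 0, and most intervals within the pairs cross 0.

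Each ID group was also set beside GFP. These comparisons share the GFP libraries, and the ID libraries entered the choice of genes, so that a gene had to differ from GFP in at least 1 of them and the values below are a description. In ID1, 6 of the 11 higher genes tested were above GFP, where 12.4% of all tested genes were above and 9.73% below. They were ADAM7, LINC00520 (3.22, SE 0.20), ESM1 (2.17, SE 0.34), LINC01050 (2.0, SE 0.20), LOC283352 (1.85, SE 0.21) and HOXD11 (1.09, SE 0.28). None of the 6 lower genes passed edgeR's quasi-likelihood test in ID1, with 2 at an unadjusted p under 0.05, and 0 passed in DESeq2 or in limma. In ID4, 7 of the 11 were above GFP, where 12.1% of all tested genes were above and 9.51% below. These were ADAM7, LINC00520 (2.49, SE 0.21), LINC01050 (1.94, SE 0.20), ESM1 (1.73, SE 0.36), LOC283352 (1.51, SE 0.22), HOXD11 (1.20, SE 0.28) and SP140 (0.59, SE 0.18). TNFAIP6, of the lower set, was below GFP in ID4, at -1.13 (SE 0.40), a call that DESeq2 did not make.

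In ID2, 2 of the 11 higher genes tested were above GFP and 6 below, where 18.5% of all tested genes were above and 16.7% below. LINC01050 (1.14, SE 0.21) and LINC00520 (1.02, SE 0.25) were above, and PDGFRA (-2.11, SE 0.31), ITGBL1 (-2.01, SE 0.15), SP140 (-1.95, SE 0.22), FAM107A (-1.74, SE 0.46), OAS3 (-1.13, SE 0.17) and LOC283352 (-1.12, SE 0.29) were below. Of the lower set, which was chosen for high levels in ID2 and ID3, 5 of 6 were above GFP in ID2, from GUCY1A3 (2.48, SE 0.43) and SLC14A1 (1.49, SE 0.20) to TNFAIP6 (0.87, SE 0.30). In ID3, 1 of the 11 was above GFP, LINC01050 (0.72, SE 0.22), and 5 were below, where 15.1% of all tested genes were above and 13.5% below. The 5 were FAM107A (-1.83, SE 0.46), ITGBL1 (-1.72, SE 0.15), PDGFRA (-1.54, SE 0.29), SP140 (-1.17, SE 0.20) and OAS3 (-0.94, SE 0.17). Of the lower set, 5 of 6 were above GFP in ID3, from GUCY1A3 (2.09, SE 0.45) and DAND5 (1.30, SE 0.42) to TNFAIP6 (0.98, SE 0.29). ZFHX2 was the gene that did not pass in ID2 (0.56, SE 0.39) or in ID3 (0.58, SE 0.39).

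Just inside the limit of 1.5 stood OAS3 (1.5004), PDGFRA (1.67) and LINC01050 (1.73) in the higher set and SLC14A1 (1.53), ZFHX2 (1.55) and DAND5 (1.59) in the lower set. Just outside stood ALDH1A1, a retinaldehyde dehydrogenase used as a stem cell marker, at 1.49, with 13 CPM in ID1, 0.884 in ID4, 0.426 in ID2 and 0.120 in ID3. LOC100506258 (1.49) and LINC01483 (1.47) were next. On the lower side, FN1, which encodes the matrix protein fibronectin, stood just outside at 1.49, with mean levels of 8496 CPM in ID1, 9386 in ID4, 13989 in ID2, 14239 in ID3 and 6088 in GFP. It was far more abundant than any of the 19 genes. C3AR1, a complement receptor (1.48), and COL5A2, a type V collagen chain (1.47), followed.

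**Figure D4:**
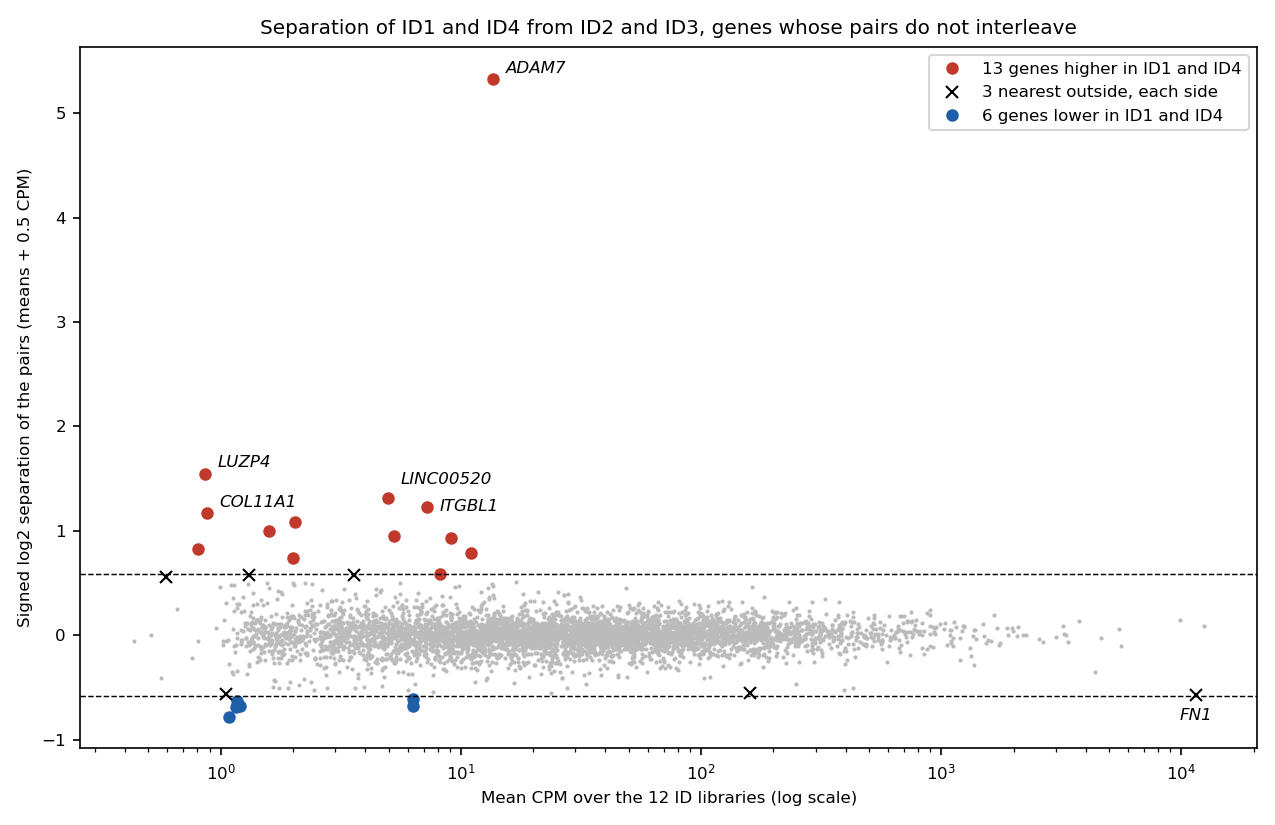
Signed log2 separation between the pairs (vertical axis, with 0.5 CPM added to each mean) against the mean CPM over the 12 ID libraries (log axis) for genes whose pairs do not interleave, 2687 above and 2462 below 0. Dashed lines mark a separation of 1.5, the 13 and 6 genes lie outside them, ADAM7 stands at 40.2 times, and crosses mark the 3 nearest genes on either side, among them FN1.

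Without the third ID2 library, the higher set held 15 genes, all 13 plus ALDH1A1 and CHML, and the lower set 6, with C3AR1 in and DAND5 out. With each of the 12 ID libraries left out alone, 13 genes were kept every time. FAM107A and PDGFRA were kept in 11 of 12, OAS3, DAND5 and SLC14A1 in 9, and ZFHX2 in 8. When the genes were chosen on 2 replicate numbers and looked up in the third, 36 of 84 choices were again parted by 1.5 times in the libraries left out and 67 lay on the same side, next to 132 and 13834 of 73650 over all genes that met the count minimum. Both totals are summed over the numbers left out and both directions, so a gene can count more than once in each. The share parted again by 1.5 times was larger for the higher set (8 of 16, 12 of 20 and 11 of 24) than for the lower (1 of 10, 2 of 6 and 2 of 8), and this difference was not tested.

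Of 33 gene lists, 5 held a member, with 1 each. For the other genes of these lists, the average of ID1 and ID4 was compared with the average of ID2 and ID3, a comparison added after the data were seen. In it 9.53% of all 12870 genes were higher in ID1 and ID4 and 10% lower (median log2 difference 0.00). A gene can pass this test through 1 group alone, and of the 2519 genes that passed, 2060 had both means of one pair on the same side of both means of the other, which is called parted below.

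COL11A1 was on the list of collagens, laminins and matrix, where 4 of the other 40 tested genes were higher in ID1 and ID4 and 16 lower (median -0.13), of which 2 and 13 were parted. FN1 (-0.67), COL5A2 (-0.58) and the fibril-binding proteoglycan LUM (-0.84) were lower and parted, opposite in direction to COL11A1. COL5A2 was at 127 CPM in ID1, 129 in ID4, 190 in ID2 and 192 in ID3, and LUM at 7.13, 4.08, 9.83 and 9.46. COL3A1 (-1.02) had its lowest mean in ID4, at 1.65 CPM, with 4.32 in ID1 close to 4.64 in ID2 and 6.28 in ID3. COL13A1 (0.61) was not parted, at 21.02 CPM in ID1, 44.1 in ID4, 13.5 in ID2 and 29.3 in ID3.

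OAS3 was on the list of interferon-stimulated genes, where 1 of the other 33 was higher and 4 lower (median -0.01), of which 0 and 3 were parted. OAS2, at -0.31 (SE 0.35), and OASL, at -0.05 (SE 0.13), did not pass. PDGFRA was on the list of stemness, neural and glial genes, where 5 of the other 24 were higher and 4 lower, of which 4 and 3 were parted. KLF4, a pluripotency factor (1.04), was parted at low levels, with 1.65 CPM in ID1, 2.01 in ID4, 0.686 in ID2 and 1.12 in ID3. SOX9, a glial and stem cell factor (0.68), was not, at 6.41 CPM in ID1, 10.3 in ID4, 3.56 in ID2 and 7.16 in ID3. CHI3L1, a secreted glycoprotein of mesenchymal gliomas (-0.75), was at 27.2 CPM in ID1, 40.9 in ID4, 58.0 in ID2 and 53.6 in ID3. EGFR, at 0.00 (SE 0.06), and PDGFRB, at -0.14 (SE 0.06), did not pass.

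ADAM7 was on the list of proteases and inhibitors, with 3 of the other 28 higher and 8 lower (median -0.08), of which 3 and 5 were parted. MMP3, a matrix-degrading metalloprotease, was lowest at -1.14, and this came mainly from ID4, at 18.3 CPM against 61.4 in ID1, 69.8 in ID2 and 77.3 in ID3. TNFAIP6 was on the list of cytokines and NF-kB feedback genes, where 4 of the other 22 were higher and 1 lower, of which 2 and 0 were parted. The chemokine CCL2 (1.13) stood out in ID1, at 6.13 CPM against 1.91 in ID4, 1.39 in ID2 and 1.74 in ID3. TNFAIP2 (0.46) was low in ID2 alone, at 23.2 CPM against 49.2 in ID1, 50.9 in ID4 and 56.3 in ID3. CCL26 (-0.64) was high in ID2 alone, at 3.52 CPM against 1.15 in ID1, 1.14 in ID4 and 0.882 in ID3, and with DESeq2, with no filter and without replicate number 2 or 3 the list had 0 genes lower. TNFAIP3 was at -0.19 (SE 0.11) and did not pass.

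Of the 646 tested genes of all 33 lists, 233 differed, and this fell to 140 without replicate number 1 and 138 without number 2. Over all 12870 tested genes, 2519 (19.6%) differed, 1227 higher and 1292 lower in ID1 and ID4. These also fell, to 541 and 660 without number 1 and to 606 and 662 without number 2. The lists were written with earlier results of these data known, so the larger share in them is a description. Without number 2, the matrix list had 2 genes higher and 11 lower and the protease list 1 and 5, and without number 1 the interferon list had 0 higher and 1 lower (edgeR quasi-likelihood test, Benjamini-Hochberg adjusted).

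The 19 genes lay apart in the genome, with none within 1 Mb of another. Of the 244 tested genes within 1 Mb of 1 of them, 46 (18.9%) differed between the pairs, next to 19.6% of all tested genes. Of the 46, 32 went in the direction of the gene they lie near and 14 in the opposite direction. Many of the 32 came from gene-rich places of the lower set. DAND5, with 39 tested neighbours, had 11 in its direction and 0 opposite, and ZFHX2, with 57, had 6 and 3. LINC00520 and SP140 of the higher set each had 0 and 2. The split by direction was not tested. Of the nearest tested genes, 4 passed in the same direction and 1 in the opposite, GPX8, a peroxidase 137496 bp from ESM1, at -0.21 (SE 0.05, edgeR quasi-likelihood test, Benjamini-Hochberg adjusted p = 0.0040). GPX8 did not pass without replicate number 1 or 2 (adjusted p = 0.0502 and 0.185). GUCY1B3, the beta subunit that forms soluble guanylate cyclase with GUCY1A3 and lies 21933 bp from it, was lower in ID1 and ID4, at -0.40 (SE 0.08, edgeR quasi-likelihood test, Benjamini-Hochberg adjusted p = 0.0011). Its mean levels were 12.8 CPM in ID1, 11.6 in ID4, 17.2 in ID2, 14.96 in ID3 and 10.9 in GFP. GADD45GIP1, 7936 bp from DAND5, was lower at -0.23 (SE 0.05) and did not pass without replicate number 2 (adjusted p = 0.0584), and SHISA4, 3869 bp from LMOD1, was lower as well, at -0.42 (SE 0.08, edgeR quasi-likelihood test, Benjamini-Hochberg adjusted p = 0.000608).

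NALCN, a sodium leak channel gene 36085 bp from ITGBL1, was higher in ID1 and ID4 by 0.95 (SE 0.32, edgeR quasi-likelihood test, Benjamini-Hochberg adjusted p = 0.0396), and without replicate number 1 or 2 it did not pass (adjusted p = 0.221 and 0.16). Next to HOXD11, HOXD13 stood at 0.25 (SE 0.30) and did not pass. HOXD10, which overlaps HOXD11 on the same strand and is named here after its values were seen, had 12 to 15 reads in ID1, 11 to 20 in ID4, 1 to 4 in ID2, 3 to 7 in ID3 and 1 to 4 in GFP. Reads of these overlapping genes may not be fully told apart. Of the genes on the opposite strand, FGF14 over ITGBL1 had 0 to 21 reads, THTPA over ZFHX2 had 7 to 30, and SP110 over SP140 had 206 to 315, with a difference between the pairs of 0.17 (SE 0.07) that did not pass. The 4 to 34 reads of ZFHX2 lay in much the same range as those of its overlapping partner. Whether the counting used strand is not given in the sources used here.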

How the data were processed

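Libraries were prepared with the Lexogen QuantSeq 3′ kit by a service company, and the submitters' processing notes name BWA, Bowtie2 and the build hg19 (GRCh37). Raw read counts per gene were deposited by the authors without normalization. The authors also deposited log2 values, quantile normalized by the name they gave the table, with a highest value per library of 17.17 to 17.65. The counting tool and the gene annotation are not given in the sources used here. Both kinds cover 15 libraries, 3 in each of 5 groups taken from the labels. No other columns were used.

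CPM were computed from raw counts and column totals (11089044 to 15148979). The 19 genes followed the rule of 1.5 times with 0.5 CPM added to group means and a mean count of 20. Members and gene lists were chosen with earlier results of these data known. Named genes are all 19 members, the 3 genes just outside the limit on each side, members of lists with the genes beside them, and ID1 to ID4, and other genes were named after their values were seen. Counts were fitted with edgeR 4.0.16 in R 4.3.3 (TMM, quasi-likelihood test, 1 mean per group, all 15 libraries) for the 12870 genes in the upper 50% by mean deposited log2 value (3.22 or more), with Benjamini-Hochberg adjustment over all of them and a threshold of 0.05. The test was tried on simulated data, drawn with 1 common spread for all genes and with changes in GFP alone. That trial does not cover a spread that differs between genes, as with genes of few reads. Alternatives were DESeq2 1.42.0, limma 3.58.1 on the deposited log2 values, other filters, the replicate number as a block, only the groups compared, and left-out libraries. Each of the 12 ID libraries left out alone, and the comparison of ID1 and ID4 together with ID2 and ID3 together, were chosen after the data were seen. The table's symbols were matched to GENCODE names directly (22331 entries) or through RefSeq by gene ID (875) or synonym (1418). The remaining 1113 had no match. Positions are from the GENCODE annotation on GRCh37 and promoters from RefSeq on GRCh38.p14. Figures were drawn with matplotlib 3.10.9.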

Additional observations from a re-analysis of the deposited data

Results flagged for a closer look

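Within the pairs, 4 differences passed the test of the difference itself, in the libraries that also chose the genes. LINC00520 was higher in ID1 than in ID4 by 0.73 on the log2 scale, at 10.2 ± 0.740 against 6.09 ± 0.428 CPM (SD, n = 3). SP140 was lower in ID1 than in ID4, at -0.76, with 10.5 ± 0.580 against 17.6 ± 2.74 CPM (SD, n = 3). SP140 was also lower in ID2 than in ID3, at -0.78, with 2.97 ± 1.52 against 5.26 ± 0.693 CPM (SD, n = 3), and the third ID2 library, at 4.70 CPM, lay within the range of ID3. LOC283352 was lower in ID2 than in ID3, at -1.57, with 1.15 ± 0.257 against 3.50 ± 1.32 CPM (SD, n = 3), and its ID3 libraries spread from 2.32 to 4.92 CPM. All 4 passed in edgeR's quasi-likelihood test, adjusted over 12870 genes by the Benjamini-Hochberg method.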

How the results depend on the processing

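The rule's settings decided the size of the set. With a pseudocount of 0.1 it held 24 higher and 12 lower genes, and with 1 it held 11 and 1 (LMOD1). A fold of 2 left 6 and 0, a fold of 5/4 gave 86 and 81, a mean count of 50 left 7 and 2, and no count minimum gave 23 and 9. TMM or DESeq2 scaling kept all 13 and 6 genes, and the deposited log2 values gave 15 and 6. With libraries left out, singly or by replicate number, the counts ran from 13 to 24 for the higher and from 5 to 10 for the lower set. Of 84 choices made on 2 replicate numbers, in which a gene can count more than once, 67 were on the same side in the third, against 36 at 1.5 times.

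Between ID1 and ID4, where 2 members differed, limma called 0 and no filter 4, and left-out libraries gave 0 to 3. Between ID2 and ID3, only the groups compared gave 1, and left-out libraries 1 to 2. The count over the gene lists, 233, ran from 138 to 231 with libraries left out. The replicate numbers did not pair the libraries (30 pairs, r from -0.25 to 0.24, 3 over 0.1). With the replicate block, 13 members differed between GFP and the mean of the 4 ID groups, as without it, 3 differed between ID1 and ID4, where ITGBL1 passed (edgeR quasi-likelihood test, Benjamini-Hochberg adjusted p = 0.0473), and LMOD1 stood at 0.00035.

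Of the values named by gene and contrast, 396 kept their direction and call under the alternatives, 18 lost the call, 3 gained it and 25 changed sign, none of the latter being a call. The sign changed with limma for ZFHX2 in the GFP contrast (0.0071), and for FAM107A (-0.18) and ZFHX2 (0.075) between ID2 and ID3. With libraries left out, ZFHX2 in the GFP contrast ran from -0.29 to 0.21. Between ID1 and ID4 the ranges were -0.0076 to 0.98 for FAM107A, -0.051 to 0.23 for LINC01050, -0.30 to 0.014 for PDGFRA, -0.086 to 0.22 for OAS3, -0.15 to 0.065 for GUCY1A3, -0.047 to 0.030 for LMOD1, -0.51 to 0.68 for DAND5, -0.93 to 0.26 for ZFHX2 and -0.031 to 0.21 for SLC14A1. Between ID2 and ID3 they were -0.30 to 0.53 for FAM107A, -0.11 to 0.76 for GUCY1A3, -0.061 to 0.069 for LMOD1 and -0.39 to 0.43 for ZFHX2. The cause was not tested. Depth limits the precision of the genes with few reads, among them TNFAIP6 and DAND5, with at most 28 and 29 in any library, and GUCY1A3 and ZFHX2, with at most 34.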
